A study of Homo sapiens with 14 samples.

Results

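Iron handling and the defence against ferroptosis were described through 10 genes across 14 neuroblastoma cell lines. The genes are TFRC, SLC40A1, FTH1, FTL, NCOA4, GPX4, AIFM2, ACSL4, HMOX1 and NQO1, taken by name, and all 10 were found among the 20049 gene symbols measured. RNA sequencing was done on 1 library per line, of total RNA from NGP, LS, IMR32, its subclone IMR5-75, SK-N-DZ, Lan-6, SK-N-FI, NBL-S, SK-N-AS, CLB-GA, SK-N-SH, its subclone SH-SY5Y, GI-ME-N and SK-N-BE(2)C. No treatment is given, and all were grown with serum in RPMI1640 or DMEM, and which line had which medium is not given, so iron and serum supply per line are unknown. The labels set no line apart by treatment or genotype. That SH-SY5Y and IMR5-75 are subclones is general knowledge and not in the labels.

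Ferroptosis is a form of cell death in which iron drives the peroxidation of unsaturated lipids in membranes. Cells take up iron through the transferrin receptor, store it in ferritin, release it by digesting ferritin and export it through ferroportin. GPX4, a selenium-containing peroxidase, reduces lipid peroxides, and other enzymes that keep coenzyme Q reduced add a line of defence of their own. Iron regulatory proteins bind stem-loops in the mRNAs of several of these genes when iron is low. They stabilise the transferrin receptor mRNA and block translation of ferritin mRNA, so the mRNA level of ferritin need not follow its protein. The transcription factor NRF2 drives many of the protective genes, among them NQO1, HMOX1 and both ferritin chains. In neuroblastoma, ferroptosis has been studied in relation to MYCN amplification and to cell state.

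The stem-loops are shown because they divide the 10 genes into those whose mRNA holds a match to the element that iron regulatory proteins bind and those without one. A match is a description of the letters and not a shown binding site. The search asked for a C, 5 bases, the loop CAGTGN with any base but G last, and 5 bases that pair with the first 5 (G-T pairs allowed), on the mRNA strand of 1 GENCODE 29 transcript per gene. Of 17186 transcripts searched, 0.948% held a match, 0.0756% in the 5′ UTR and 0.454% in the 3′ UTR. A set of 2 or more matches in the 3′ UTR was found in 0.0175%, or 3 transcripts, of which TFRC is 1. The matches in the members are printed 5′ to 3′ as DNA letters, with the loop in capitals.
TFRC element 1: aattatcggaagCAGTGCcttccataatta
TFRC element 2: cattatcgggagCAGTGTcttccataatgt
TFRC element 3: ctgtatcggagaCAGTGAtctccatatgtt
TFRC element 4: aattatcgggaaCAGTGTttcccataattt
FTH1: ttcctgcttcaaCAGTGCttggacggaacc
FTL: ctcttgcttcaaCAGTGTttggacggaaca
SLC40A1: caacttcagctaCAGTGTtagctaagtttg

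The 4 TFRC matches lie in its 3′ UTR on the minus strand of GRCh38, at chr3:196050978-196051007, chr3:196050574-196050603, chr3:196050509-196050538 and chr3:196050462-196050491. Those of the ferritin chains and of ferroportin lie in the 5′ UTR, at chr11:61967573-61967602 (FTH1, minus strand), chr19:48965335-48965364 (FTL, plus strand) and chr2:189580660-189580689 (SLC40A1, minus strand). FTH1 and FTL share the same 5 bases on each side of the loop. GPX4, AIFM2, ACSL4, NCOA4, HMOX1 and NQO1 had no match in the transcript searched.

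Levels are given in CPM, counts scaled to a common library size by TMM, which aligns libraries on the bulk of their genes. Intervals of single values are 95% exact Poisson intervals and cover counting error only. Library totals were 35856642 counts at the least (Lan-6) and 58644013 at the most (LS). TMM scaled the library of GI-ME-N from 47649511 to 32265533 counts, which raises all levels of that line in CPM. Lan-6 and GI-ME-N stand apart in how levels follow transcript length. Over genes averaging 5 CPM or more, the deviation of a gene's level from its 14-line mean had a Spearman rho of -0.449 with transcript length in Lan-6 and -0.327 in GI-ME-N, against -0.132 to 0.252 in the other 12. With GC content it was 0.637 in Lan-6, 0.183 in GI-ME-N and -0.368 in LS. With 1 library per line, a technical origin of this trend and a trait of the line itself cannot be told apart. As GPX4, FTH1 and FTL have short mRNAs (919, 1229 and 878 bases), each level was also computed with this trend removed from each library, after which rho with GC content was still 0.149 in Lan-6. Of 8 sympathetic neuroblast markers, the summed level was lowest in SK-N-SH (307 CPM) and GI-ME-N (447 CPM) and highest in Lan-6 (19870 CPM). Markers of cells rich in iron genes were low: 5 erythroid markers summed to at most 0.911 CPM, and 8 macrophage and leukocyte markers to 5.896 to 48.7 CPM except in SK-N-AS, where PTPRC alone held 469.6 of 489 CPM. In bulk RNA, fewer cells that express a gene and less RNA per cell cannot be told apart.

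**Figure D1:**
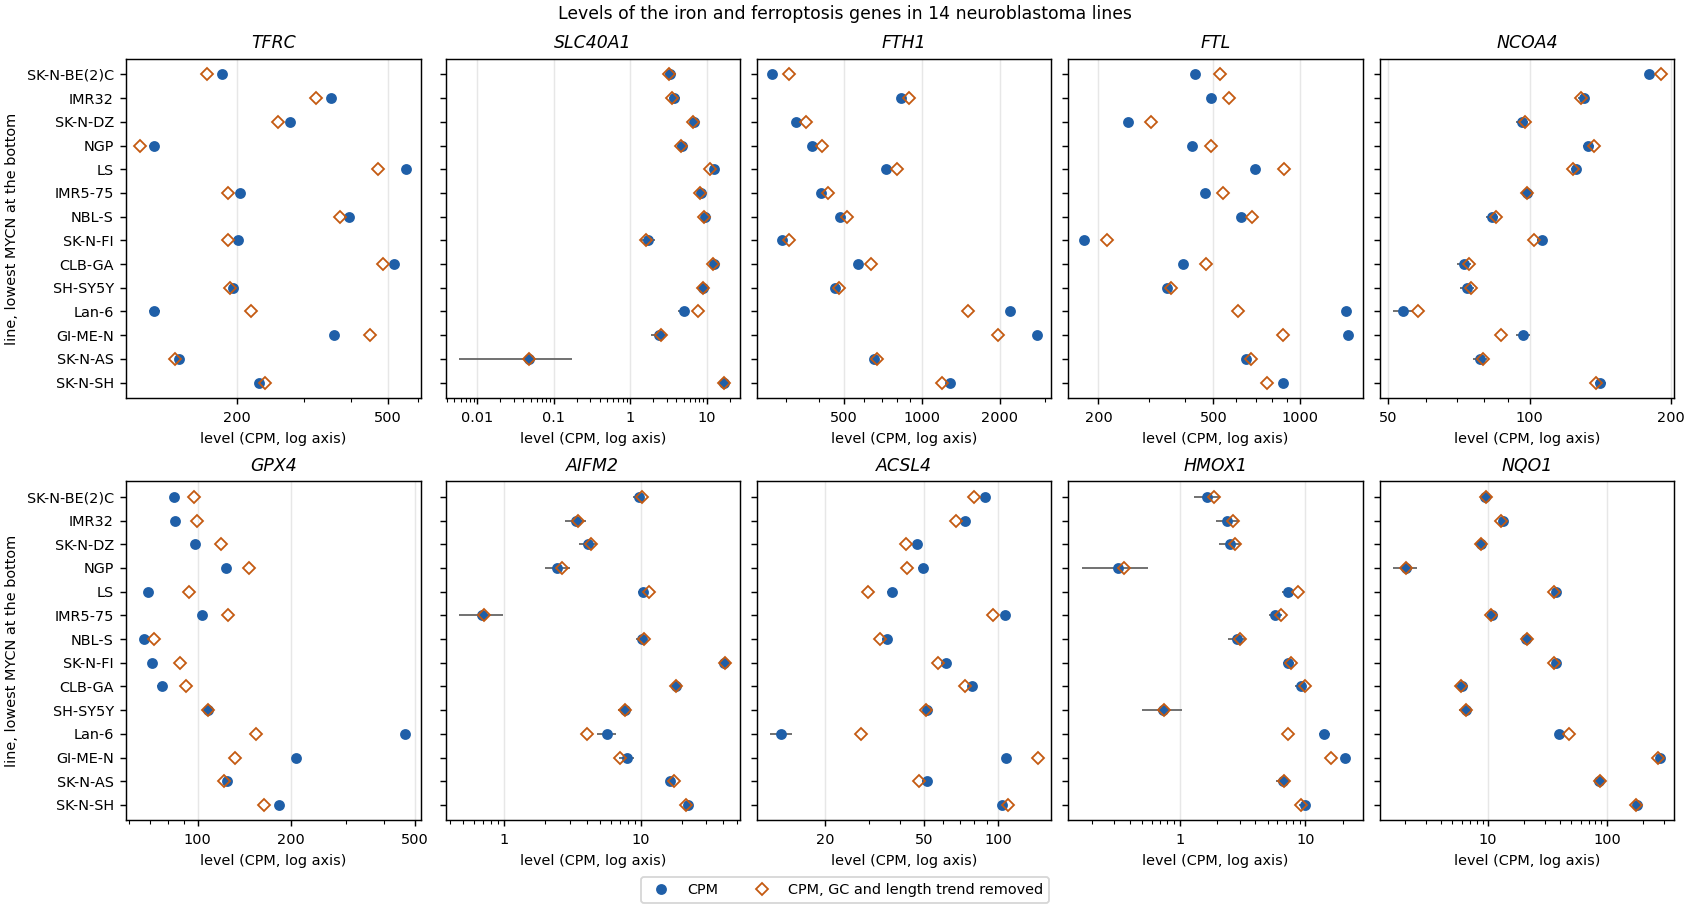
Levels of the 10 genes in each line, on log axes in CPM, with lines ordered by their MYCN level. Filled circles are levels with their exact Poisson interval, and open diamonds the same levels with the GC and length trend of each library removed. GPX4 in Lan-6 moves from 466 to 154 CPM, while NQO1 in GI-ME-N moves only from 279 to 268 CPM.

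TFRC, the transferrin receptor that brings iron into the cell (chr3:196027183-196082189), was present in every line. Its level ran from 120.5 CPM in NGP over a median of 216 CPM to 556 CPM in LS. CLB-GA (519 CPM), NBL-S (394 CPM), GI-ME-N (360.2 CPM) and IMR32 (353 CPM) followed LS, and Lan-6 (121 CPM) and SK-N-AS (141 CPM) were close to NGP. The high and the low lines both include lines with much MYCN: LS and NGP hold 949 and 1177 CPM of MYCN. With the trend removed TFRC in Lan-6 was at 218 CPM, so that its place among the lowest lines holds only with the trend left in, and CLB-GA (486 CPM) then stood above LS (469 CPM). The intervals of GI-ME-N and IMR32, of Lan-6 and NGP, and of the neighbours IMR5-75, SK-N-FI and SH-SY5Y overlapped.

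SLC40A1, ferroportin, the only known iron exporter of animal cells (chr2:189560579-189583758), was low throughout and nearly absent from 1 line. It was highest in SK-N-SH at 16.7 CPM, with CLB-GA and LS at 12.5 CPM each, and the median was 5.88 CPM. SK-N-AS had 2 counts, or 0.0472 CPM, and the next lowest lines were SK-N-FI at 1.72 CPM and GI-ME-N at 2.39 CPM. The ratio of SK-N-SH to SK-N-AS was 355, with a counting interval of 97.8 to 2940. Of its 13 pairs of neighbouring lines, 8 had overlapping intervals, so the order in the middle is not resolved.

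The ferritin chains were the most abundant of the genes per length of mRNA: the median was 546 CPM per kilobase for FTL and 429 for FTH1, against 109 for GPX4 and 42.2 for TFRC. FTH1, the heavy chain with the ferroxidase site (chr11:61959718-61967660), ran from 265 CPM in SK-N-BE(2)C (SK-N-FI was lowest after removal of the trend, at 306 CPM) over a median of 527 CPM to 2794 CPM in GI-ME-N. Lan-6 (2196 CPM) and SK-N-SH (1286 CPM) came next, ahead of IMR32 (833 CPM). FTL, the light chain that promotes the iron core (chr19:48965301-48966878), ran from 179 CPM in SK-N-FI over a median of 479 CPM to its highest levels in GI-ME-N (1466 CPM) and Lan-6 (1436 CPM). The same 3 lines thus led both chains. After removal of the trend FTH1 was still highest in GI-ME-N (1975 CPM), Lan-6 (1513 CPM) and SK-N-SH (1199 CPM). FTL was then highest in LS (881 CPM), followed by GI-ME-N (874 CPM), SK-N-SH (767 CPM), NBL-S (681 CPM), SK-N-AS (677 CPM) and Lan-6 (607 CPM). GENCODE names 25 pseudogenes after FTH1 and 16 after FTL, of which 0 and 1 are in the deposited table, and reads that fit such a copy may be counted with the gene or lost.

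The balance of the chains also differed. The ratio of FTL to FTH1 in CPM was 1.63 in SK-N-BE(2)C, 1.28 in NBL-S, 1.15 in IMR5-75 and 1.12 in NGP, and under 1 in the other 10 lines. It was lowest in GI-ME-N at 0.525. Per kilobase of mRNA, FTL having the shorter one, the ratio was also above 1 in SK-N-AS (1.4), LS (1.34), SK-N-DZ (1.08) and SH-SY5Y (1.04). GI-ME-N was still lowest per kilobase, at 0.734. After removal of the trend the ratio in CPM ran from 0.401 in Lan-6 to 1.71 in SK-N-BE(2)C. LS (1.09) and SK-N-AS (1.01) were then above 1 as well. The ratio of FTH1 to TFRC mRNA in CPM, not scaled for length, led in Lan-6 (18.2), GI-ME-N (7.76), SK-N-SH (5.64) and SK-N-AS (4.63). It was at most 3.13 (NGP) in the rest. Lowest was CLB-GA at 1.10, where the levels per kilobase were 463 CPM for FTH1 and 101.5 CPM for TFRC. The same 4 lines led after removal of the trend, at 6.94, 4.41, 5.07 and 4.88.

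NCOA4, the receptor that carries ferritin to lysosomes for digestion (chr10:46005088-46030714), varied least among the 10 genes with the library trend left in, and after GPX4 with it removed (SD 0.456 against 0.341). It ran from 53.8 CPM in Lan-6 over a median of 97.9 CPM to 180 CPM in SK-N-BE(2)C. Its SD over the 14 lines was 0.465 on the log2 CPM scale, below the median of 0.751 over the 14213 genes averaging 1 CPM or more. SK-N-SH (142 CPM), NGP (133 CPM), IMR32 (130.5 CPM) and LS (126 CPM) followed SK-N-BE(2)C. The extremes were the same lines after removal of the trend, at 57.9 and 190.5 CPM. GENCODE names 3 pseudogenes after NCOA4, none of them in the deposited table.

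GPX4, the peroxidase that detoxifies lipid peroxides (chr19:1103926-1106791), had a level that depended on the library trend in Lan-6. Lan-6 held 466 CPM, GI-ME-N 208 CPM and SK-N-SH 183 CPM, against a median of 101 CPM and a lowest level of 67.3 CPM in NBL-S. The ratio of Lan-6 to NBL-S was 6.93. After removal of the trend SK-N-SH led at 164 CPM, Lan-6 was at 154 CPM, NGP at 146 CPM and GI-ME-N at 132 CPM, NBL-S was still lowest at 72.5 CPM, and the ratio of highest to lowest was 2.26. The SD was 0.770 on the log2 CPM scale and 0.341 with the trend removed.

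AIFM2, which encodes FSP1, a coenzyme Q reductase that protects membranes without glutathione (chr10:70098223-70132934), spread far more widely. It was at 40.4 CPM in SK-N-FI, 22.1 CPM in SK-N-SH, 18.0 CPM in CLB-GA and 16.3 CPM in SK-N-AS. The median was 8.74 CPM, NGP held 2.45 CPM and IMR5-75 had 31 counts, or 0.687 CPM. The ratio of SK-N-FI to IMR5-75 was 58.8, with a counting interval of 41.3 to 86.8, and it was not set by the trend (40.9 CPM in SK-N-FI with the trend removed). Its promoter window holds the core of an antioxidant response element, the letters bound by NRF2, TGACNNNGC, on the strand opposite to the gene. The match, in capitals, is centred 18 bases before the RefSeq start, at chr10:70132829-70132857 (GRCh38.p14), printed on the strand of the gene.
AIFM2 promoter: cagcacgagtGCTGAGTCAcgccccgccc

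Windows from 250 bases before to 50 after the start were taken from RefSeq for 8 of the 10 genes and searched on both strands. FTH1 and HMOX1 had no window and were not searched. A match to this core is in 13.3% of all 35116 windows. Of the other members, 1 of the NCOA4 windows holds one, and the windows of GPX4, ACSL4, TFRC, FTL, SLC40A1 and NQO1 do not. The E-box CACGTG, the letters bound by MYC proteins and found in 7.26% of windows, was in none of the 8 genes' windows. Neither count says anything of sites outside these windows.

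ACSL4, which loads membranes with the polyunsaturated fatty acids that peroxidise (chrX:109624244-109733403), was highest in GI-ME-N (107 CPM), IMR5-75 (106 CPM) and SK-N-SH (103 CPM), levels whose intervals overlapped from each to the next. The median was 56.5 CPM. Lan-6 was lowest at 13.3 CPM, followed by NBL-S at 35.5 CPM and LS at 37.2 CPM. Lan-6 was at 27.9 CPM after removal of the trend, close to LS at 29.9 CPM, and GI-ME-N at 144 CPM. The ratio of ACSL4 to GPX4 was 0.0286 in Lan-6 and 0.401 to 1.05 elsewhere, and with the trend removed 0.182 and 0.293 to 1.10.

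HMOX1, haem oxygenase, which frees iron from haem (chr22:35380361-35394214), was low, with a median of 6.21 CPM. It was highest in GI-ME-N (20.7 CPM), Lan-6 (14.1 CPM), SK-N-SH (9.91 CPM) and CLB-GA (9.16 CPM), and Lan-6 was at 7.33 CPM after removal of the trend. NGP had 12 counts (0.323 CPM) and SH-SY5Y 32 (0.734 CPM), with overlapping intervals. The ratio of GI-ME-N to NGP was 64.2, with a counting interval of 36.5 to 125.

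NQO1, a quinone reductase and a classical NRF2 target (chr16:69706996-69726951), had the largest SD of the 10 genes on the log2 CPM scale, at 1.99. This lay at percentile 87.1 of the 14213 genes averaging 1 CPM or more. Its ratio of highest to lowest line, 138, was below the 355 of SLC40A1, which rests on 2 counts in SK-N-AS. GI-ME-N held 279 CPM, SK-N-SH 179.6 CPM and SK-N-AS 85.1 CPM, and the level was 39.4 CPM or less in the other 11 lines. The median was 17.2 CPM. The least was in NGP at 2.02 CPM, CLB-GA at 5.997 CPM and SH-SY5Y at 6.45 CPM. The 3 lines with the most NQO1 are the 3 with the least MYCN, at 0.384 to 1.33 CPM. They also had the most of 6 fibroblast markers, whose sum was highest in SK-N-SH (14370 CPM), GI-ME-N (11910 CPM) and SK-N-AS (2435 CPM) against 10.6 to 743 CPM in the other 11. All 6 were at 1 CPM or more in these 3 lines and also in LS and NGP, the line with the least NQO1, and their part in the NQO1 levels was not tested. NGP thus held the lowest level of TFRC, HMOX1 and NQO1 among the 14 lines, and GI-ME-N the highest of FTH1, FTL, ACSL4, HMOX1 and NQO1. After removal of the trend LS in place of GI-ME-N led FTL, and the other 4 and the 3 lows of NGP were as before. On the deposited log2 values Lan-6 led FTL (15.451 against 15.304 in GI-ME-N). Lan-6 was also lowest there for TFRC (11.355 against 11.639 in NGP). Counting intervals overlapped between NGP and Lan-6 for TFRC, NGP and SH-SY5Y for HMOX1, and GI-ME-N and IMR5-75 for ACSL4.

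Whether the genes follow known features of these tumours was asked by fitting, for every gene, a slope across 12 lines on 3 measures, in log2 units per SD of the measure. The 2 subclones were left out, as they are not independent of their parents. The measures were the level of MYCN, a score of 14 mesenchymal markers, and a score of 15 NRF2 targets other than the 10 genes. They overlap, so slopes on the 3 are not separate findings: the mesenchymal and the NRF2 score were both highest in SK-N-SH (5.41 and 0.90), followed by GI-ME-N (4.43 and 0.60), and with SK-N-AS these 3 lines hold the least MYCN. SK-N-SH and GI-ME-N lie apart from the rest on the mesenchymal score, where LS came next at 1.33. Tests are edgeR's quasi-likelihood test with Benjamini-Hochberg adjustment over all genes, and the p-values measure the spread between single libraries of each line.

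NQO1 was called on all 3 measures, and it was the only one of the 10 genes called on any. It fell with MYCN, with a slope of -1.52 (SE 0.33, edgeR adjusted p = 0.0347). It rose with the mesenchymal score, with a slope of 1.44 (SE 0.30, edgeR adjusted p = 0.0139), and with the NRF2 score, with a slope of 1.78 (SE 0.29, edgeR adjusted p = 0.0118). It was called on all 3 after removal of the trend as well, with limma slopes of -1.62, 1.60 and 1.73. The call on the NRF2 score held without any single line (edgeR adjusted p 0.0130 to 0.0460). That on the mesenchymal score was lost without GI-ME-N alone (slope 1.11, edgeR adjusted p = 0.0977). That on MYCN was lost without SK-N-BE(2)C, GI-ME-N, IMR32, NBL-S, NGP, SK-N-DZ or SK-N-SH, each alone (slopes -1.22 to -1.58, edgeR adjusted p 0.0574 to 0.0783). With the subclones in place of their parents the call was lost on MYCN (slope -1.31, edgeR adjusted p = 0.0906) and on the NRF2 score (slope 1.59, edgeR adjusted p = 0.0670).

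On MYCN, 551 of 15673 genes were called, or 3.52%, against 1 of the 10 members. The median slope of the 10 was -0.52 against -0.01 over all genes, and 2 of 10 slopes were positive, against 48.7% of all genes. With the trend removed the median of the 10 was -0.237 (limma, against -0.005 over all genes), and without Lan-6 it was -0.383. HMOX1 (-1.03, SE 0.34, edgeR adjusted p = 0.0965) and FTH1 (-0.76, SE 0.25, edgeR adjusted p = 0.0996) did not pass. Both passed in DESeq2 (adjusted p = 0.00955 and 0.0270), which called 2680 genes in all. In edgeR, FTH1 passed only without SK-N-AS (adjusted p = 0.0488), a fit that called 8.65% of all genes. Without any other single line FTH1 did not pass, with edgeR adjusted p from 0.0982 (without SK-N-FI) to 0.258 (without GI-ME-N). HMOX1 passed in no such omission (edgeR adjusted p 0.0568 to 0.225). GPX4 had a slope of -0.54 (SE 0.23), FTL of -0.49 (SE 0.22) and AIFM2 of -0.56 (SE 0.36), none past the test. With the trend removed these were -0.18, -0.197 and -0.502. TFRC, which carries iron into the cell and has been described as a target of MYC proteins, had a slope of 0.20 (SE 0.23, edgeR adjusted p = 0.626), and of -0.003 with the trend removed. NCOA4 had 0.21 (SE 0.14), ACSL4 -0.14 (SE 0.21) and SLC40A1 -0.04 (SE 0.46).

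On the mesenchymal score, 933 of 15660 genes were called, or 5.96%. All 10 members had positive slopes, with a median of 0.28 against -0.03 over all genes, where 46.5% were positive, and 1 of 10 was called. The slopes of TFRC (0.04, SE 0.23), NCOA4 (0.05, SE 0.15), GPX4 (0.14, SE 0.25), AIFM2 (0.19, SE 0.34) and SLC40A1 (0.26, SE 0.40) were smaller than their SE. FTH1 (0.54, SE 0.25, edgeR adjusted p = 0.252), HMOX1 (0.59, SE 0.35) and FTL (0.36, SE 0.22) were nearest after NQO1. Without Lan-6, whose library carries the strongest length and GC trend, FTH1 (slope 0.80, edgeR adjusted p = 0.0180) and GPX4 (0.43, edgeR adjusted p = 0.0336) also rose with the score. In that fit 9.39% of all genes were called. Leaving out GI-ME-N instead gave slopes of 0.225 for FTH1 (edgeR adjusted p = 0.796), 0.178 for FTL and 0.058 for GPX4. None of these was called, and 2.29% of all genes were. With the trend removed and all 12 lines kept, 1 of 10 members and 9.04% of all genes were called. Without SK-N-SH 7 of 10 slopes were positive, and with the subclones in place of their parents also 7.

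On the NRF2 score, 385 of 15659 genes were called, or 2.46%, against 1 of the 10 members. The median slope of the 10 was 0.32, against -0.01 over all genes. HMOX1 had a slope of 0.99 (SE 0.40, edgeR adjusted p = 0.229, and 0.0339 in DESeq2), AIFM2 of 0.63 (SE 0.38, edgeR adjusted p = 0.444), FTH1 of 0.51 (SE 0.29) and FTL of 0.34 (SE 0.23). AIFM2 and NCOA4, which have a match to the NRF2 core in a promoter window, did not pass. Such a match is in 13.3% of all windows, and FTH1 and HMOX1 had no window to search. GPX4, at 0.09 (SE 0.26), and NCOA4, at -0.04 (SE 0.15), had the smallest slopes.

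**Figure D2:**
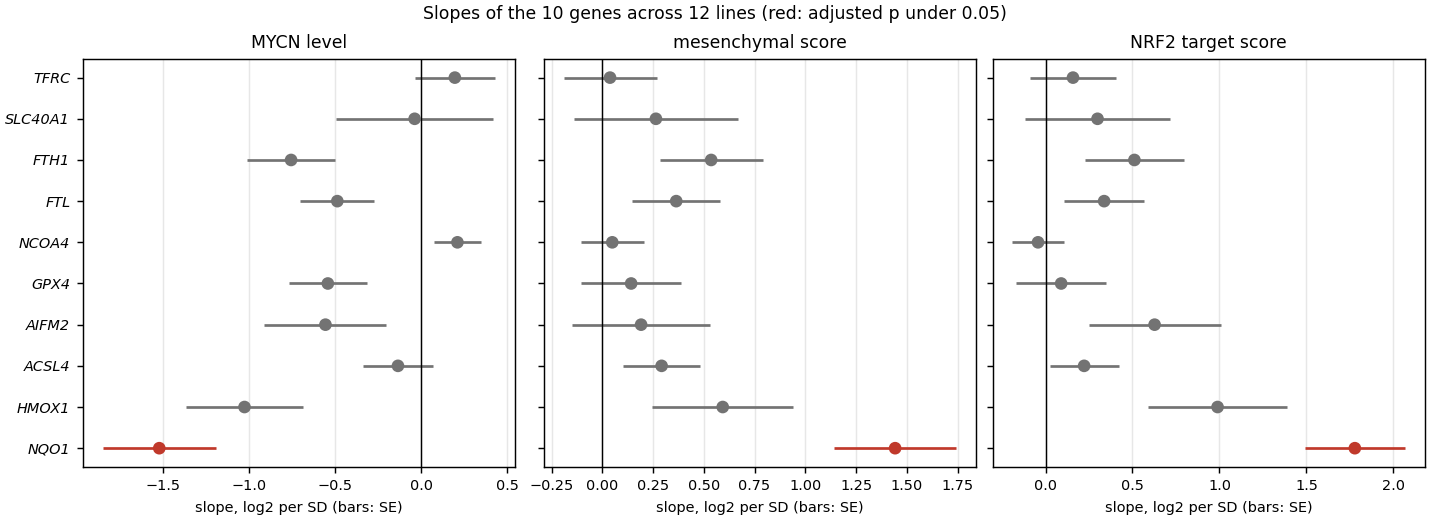
Slopes of the 10 genes on the MYCN level, the mesenchymal score and the NRF2 target score across 12 lines, in log2 units per SD, with bars of 1 SE. NQO1, in red, is the only gene past the adjusted threshold, at -1.52, 1.44 and 1.78.

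To see which of the genes move together, 7 pairs with a known shared or opposed role were tested across the 12 lines with 2-sided permutation tests, adjusted by Benjamini-Hochberg over the 7. For the ferritin chains r was 0.894 (permutation p = 7e-05, adjusted p = 4.9e-04). Their rho was 0.853 (permutation p = 8.3e-04, adjusted p = 0.00581). Without GI-ME-N and Lan-6, the lines farthest from the median of FTH1, r was 0.767 (permutation p = 0.00906). After removal of the trend r was 0.709 (adjusted permutation p = 0.0279) and rho 0.727 (adjusted permutation p = 0.0677). Both mRNAs are short, and the part in this result of the trend left in Lan-6 was not tested.

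HMOX1 and NQO1 were the other pair past the test, and their r was 0.797 (permutation p = 0.00153, adjusted p = 0.00535). Their rho was 0.720 (permutation p = 0.0115, adjusted p = 0.0404), and its call was lost after removal of the trend (rho 0.594, adjusted permutation p = 0.160). It was also lost on the deposited log2 values (adjusted permutation p = 0.092), with the subclones swapped (adjusted permutation p = 0.0599) and in 10 of 12 omissions of a line (adjusted permutation p up to 0.145). Leaving out NGP and SK-N-BE(2)C gave an r of 0.646 (permutation p = 0.0445). Without NGP alone r was 0.690 and the adjusted permutation p 0.0714, so the call rests on that line. CLB-GA lay off the line, with 9.16 CPM of HMOX1 but 5.997 CPM of NQO1, and without it r was 0.921.

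The other 5 pairs did not pass. TFRC and FTH1, which iron regulatory proteins control in opposite directions after transcription, gave r = 0.07 (permutation p = 0.826, adjusted p = 0.826) and a rho of 0.189 (permutation p = 0.557). Leaving out LS and NGP gave r = -0.05 (permutation p = 0.889). For TFRC and SLC40A1 r was 0.484 (permutation p = 0.0993, adjusted p = 0.196) and 0.507 when LS and NGP were left out. Their rho was 0.476 (permutation p = 0.122). For NQO1 and AIFM2, both quinone reductases, r was 0.482 (permutation p = 0.112, adjusted p = 0.196) and 0.437 when GI-ME-N and NGP were left out. Their rho was 0.406 (permutation p = 0.193). For NCOA4 and FTH1 r was -0.385 (permutation p = 0.217, adjusted p = 0.301), and it was 0.133 when SK-N-BE(2)C and Lan-6 were left out. Their rho was -0.245 (permutation p = 0.442). For ACSL4 and GPX4 r was -0.348 (permutation p = 0.258, adjusted p = 0.301) but rho 0.224 (permutation p = 0.480). That negative r rests on Lan-6: without GI-ME-N and Lan-6 r was 0.428 (permutation p = 0.217), without Lan-6 alone 0.585 (adjusted permutation p = 0.107), and with the trend removed 0.204.

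**Figure D3:**
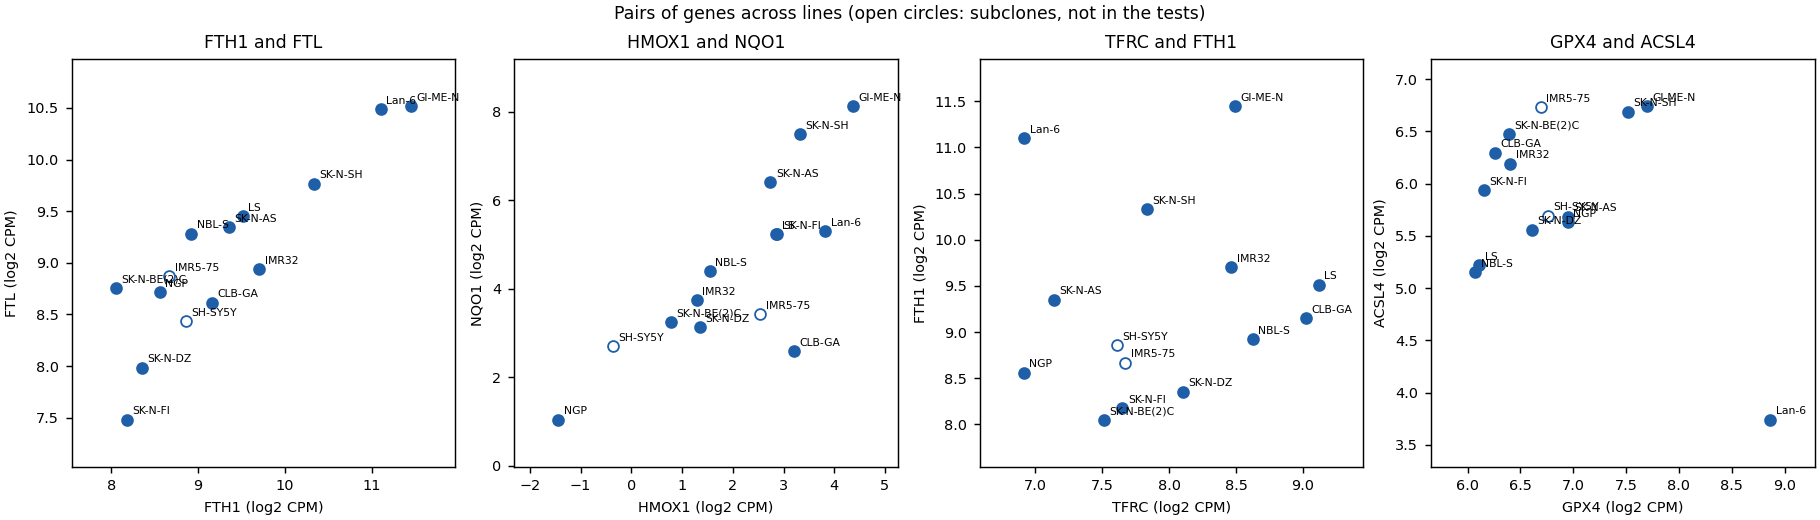
Levels of 4 pairs of genes in log2 CPM, 1 point per line, with the subclones as open circles. FTL follows FTH1 and NQO1 follows HMOX1 with CLB-GA off the line, TFRC and FTH1 show no order, and Lan-6 alone lies far from the other lines for GPX4 and ACSL4.

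SH-SY5Y and IMR5-75 each derive from another line of the series, which gives 2 comparisons of cells of 1 origin, with 1 library a side and no test. SH-SY5Y held less of all 10 genes than SK-N-SH, while the median log2 difference over 14213 genes was 0.012. NQO1 was at 6.45 CPM against 179.6 CPM (log2 difference -4.79), HMOX1 at 0.734 against 9.91 CPM (-3.67), AIFM2 at 7.62 against 22.1 CPM (-1.53), FTH1 at 465 against 1286 CPM (-1.47) and FTL at 347 against 871 CPM (-1.33). These 5 of 10 genes differed by 2-fold or more, as did 33.7% of 14213 genes, and with the trend removed ACSL4 was added (-1.09). TFRC was nearest to equal, at 195 against 228 CPM. Markers differed as well: the fibroblast sum was 219 CPM in SH-SY5Y against 14370 CPM, the neuroblast sum 4082 against 307 CPM and the mesenchymal score -0.80 against 5.41, and their part in these differences was not tested. Between IMR5-75 and IMR32, 4 of 10 genes differed by 2-fold or more, as did 28.5% of genes. AIFM2 was at 0.687 against 3.34 CPM (-2.21) and FTH1 at 407 against 833 CPM (-1.03), while HMOX1 (5.78 against 2.40 CPM) and SLC40A1 (8.44 against 3.77 CPM) were higher in IMR5-75. NQO1 was at 10.7 against 13.3 CPM and FTL at 467 against 491 CPM. FTH1 and AIFM2 were lower by 2-fold or more in both subclones, and the share of all genes that were so was not computed. HMOX1 differed in opposite directions.

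**Figure D4:**
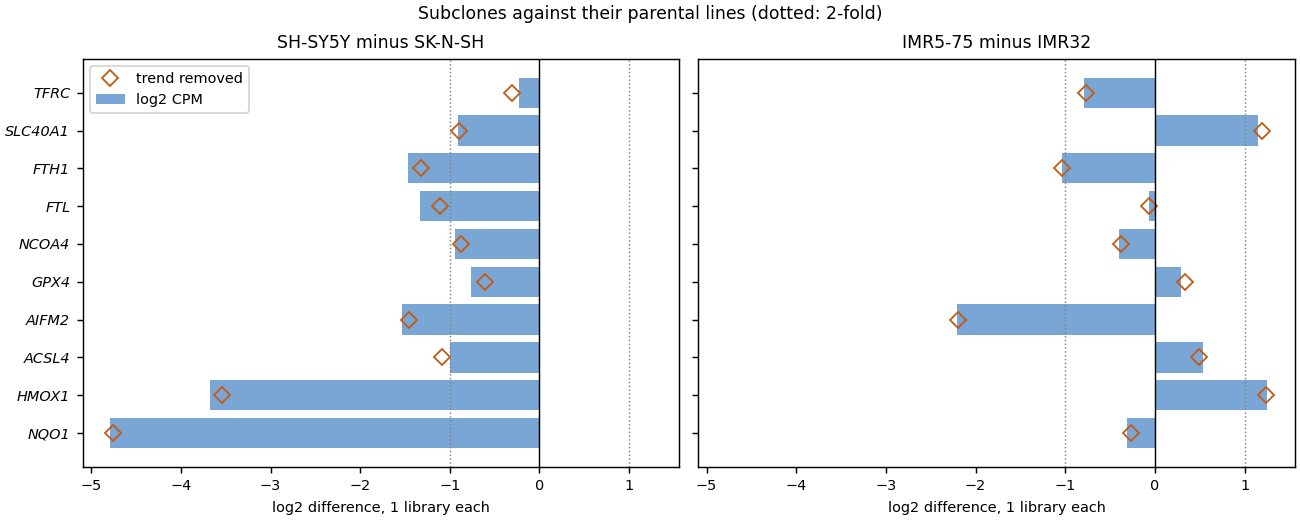
Log2 difference of each gene between a subclone and its parent, 1 library each, with bars for log2 CPM and diamonds with the trend removed. All 10 genes are lower in SH-SY5Y than in SK-N-SH, led by NQO1 at -4.79, while HMOX1 and SLC40A1 are higher in IMR5-75 than in IMR32.

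The rest of the pathway was read from a list of 81 further genes in 10 groups, of which 80 were in the table and FTMT was not analysed here. At least 1 CPM in every line was found for 61 of the 80, including all 8 genes of selenium and selenoprotein synthesis, all 9 of mitochondrial iron, all 6 of NRF2 control and all 3 of iron sensing. It was found for 4 of 10 genes of iron uptake and reduction and for 2 of 6 of iron storage, chaperones and export. On MYCN, 3 of 73 tested genes were called, a share near the 3.52% of all genes, and all fell: BLVRB, a biliverdin reductase of haem breakdown (-1.85, SE 0.36, edgeR adjusted p = 0.0285), MAFF, a small partner of NRF2 (-1.18, SE 0.26, edgeR adjusted p = 0.0349), and SQSTM1, the autophagy receptor that sequesters KEAP1 (-0.71, SE 0.18, edgeR adjusted p = 0.0493). BLVRB was highest in Lan-6 (33.8 CPM, and 11.2 after removal of the trend) and GI-ME-N (33.5 CPM, and 20.6) and lowest in IMR32 (0.699 CPM). Like the call of NQO1 on MYCN, each of the 3 was lost in several omissions of a single line, with edgeR adjusted p up to 0.0666 for BLVRB, 0.0891 for MAFF and 0.143 for SQSTM1. All 3 were also lost with the subclones in place of their parents (edgeR adjusted p = 0.115, 0.0799 and 0.211, with slopes of -1.28, -1.02 and -0.43), and SQSTM1 on the deposited log2 values (limma adjusted p = 0.0651) and with the trend removed (limma adjusted p = 0.0799).

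On the mesenchymal score 4 of 73 were called, a share near the 5.96% of all genes, and all rose. CYBRD1, a ferric reductase, had a slope of 2.64 (SE 0.49, edgeR adjusted p = 0.00705), and SK-N-SH held 116 CPM, GI-ME-N 48.3 CPM and LS 37.6 CPM against a median of 2.43 CPM. PRDX6, a peroxiredoxin that reduces lipid hydroperoxides, had a slope of 0.75 (SE 0.12, edgeR adjusted p = 0.00294), and GI-ME-N held 616 CPM, SK-N-SH 419.5 CPM and SK-N-BE(2)C, the lowest, 97.2 CPM. Both calls held without any single line. STEAP2, another metalloreductase (1.46, SE 0.26, edgeR adjusted p = 0.00628), was lost without SK-N-SH, where it was at 28.1 CPM (slope 0.58, edgeR adjusted p = 0.323), with all 14 lines (slope 1.002, edgeR adjusted p = 0.172) and with the subclones swapped (slope 0.23, edgeR adjusted p = 0.889). ACO1, which encodes iron regulatory protein 1 (0.67, SE 0.16, edgeR adjusted p = 0.0294), was lost without GI-ME-N, IMR32, NBL-S or SK-N-SH, with edgeR adjusted p up to 0.277 and a slope down to 0.41, and with the subclones swapped (edgeR adjusted p = 0.0714). GI-ME-N held 130.5 CPM of it, SK-N-SH 80.4 CPM and SK-N-BE(2)C, the lowest, 10.2 CPM. On the NRF2 score 2 of 69 were called, a share near the 2.46% of all genes, and both rose: CYBRD1 (2.33, SE 0.40, edgeR adjusted p = 0.0150) and STEAP2 (1.37, SE 0.31, edgeR adjusted p = 0.0373). Without SK-N-SH neither was called (edgeR adjusted p = 0.0955 and 0.618, the latter with a slope of 0.52), and that of STEAP2 was also lost without IMR32, NBL-S, CLB-GA, SK-N-BE(2)C or GI-ME-N. With the subclones swapped both were lost (edgeR adjusted p = 0.0670 and 0.916, with slopes of 1.99 and 0.40), and STEAP2 also with all 14 lines (edgeR adjusted p = 0.214), on the deposited log2 values (limma adjusted p = 0.143) and with the trend removed (limma adjusted p = 0.124).

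Other genes of the list also differed widely between lines. HEPH and STEAP1 were too low to be tested, SLC7A11, part of the NRF2 score, was tested and not called on MYCN and the mesenchymal score only, and the others named here were tested on all 3 measures and not called. SLC7A11, the cystine carrier that feeds glutathione synthesis, was at 221 CPM in SK-N-AS, 91.9 CPM in SK-N-BE(2)C and 71.2 CPM in IMR5-75, and at 4.42 CPM in IMR32. CHAC1, which degrades glutathione, was also highest in SK-N-AS, at 102 CPM against a median of 7.60 CPM. SK-N-AS was thus the line with the most SLC7A11 and the least SLC40A1. GCH1, which starts the synthesis of tetrahydrobiopterin, a lipid antioxidant and a cofactor of catecholamine synthesis, was highest in SK-N-BE(2)C (192 CPM), CLB-GA (176 CPM) and SH-SY5Y (159 CPM). It was lowest in GI-ME-N (0.434 CPM), LS (3.67 CPM) and SK-N-SH (7.11 CPM), so that GI-ME-N and SK-N-SH, with the most NQO1, were among the 3 lines with the least GCH1. HEPH, a ferroxidase that acts with ferroportin, was at 28.5 CPM in SK-N-SH, the line with the most SLC40A1, and under 1 CPM in the other 13. STEAP1 and STEAP3 were also highest in SK-N-SH, at 9.77 and 74.2 CPM. MBOAT1 was at 8.92 CPM there and 8.52 CPM in LS, which led after removal of the trend (8.77 against 8.60 CPM), while TFR2, a second transferrin receptor, was highest in IMR32 at 22.0 CPM and SLC39A8, a metal carrier, in NGP at 24.8 CPM.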

How the data were processed

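The deposited table of estimated counts holds whole numbers for 20049 gene symbols in 14 libraries, read in the unit of expected counts, rounded, with no scaling. The unit rests on the values. The deposited log2 values, called variance-stabilised by the authors' file name, served only as an alternative. Kallisto 0.44.0, DESeq2 1.48.2 and GRCh38 are named in the submitters' processing notes without roles. The sources used here do not give the annotation, the summing of transcripts, strand or filters. The table was analysed in R 4.3.3 with edgeR 4.0.16 (TMM, log2 CPM with a prior count of 2), limma 3.58.1, DESeq2 1.42.0 and scipy 1.17.1.

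Slopes were fitted to genes with at least 1 CPM in at least 3 of the 12 lines, leaving out the genes of each measure, with an adjusted p threshold of 0.05. SEs were derived from the slope and its F statistic. Of 15 mesenchymal markers 14 passed that limit, and of 16 NRF2 targets 15 were in the table. Permutation tests used 100000 resamples, and both routines were tested on simulated data. In the simulated fits, 0 to 4% of slopes of 0.5 were called, and 16 to 42% of slopes of 1 or -1. Of slopes of 2, 74 to 88% were called. A member that was not called may therefore still have a slope of the size printed for it. Leaving aside the outer lines on each side, the widest gap between neighbouring levels over the 12 lines was 0.205 of a gene's range (HMOX1). Lines set apart at either end, such as SK-N-AS for SLC40A1, are not covered by this measure, and no limit for a cluster was set. The trend of each library with log2 transcript length and GC content was fitted by natural splines (4 degrees of freedom each) over genes averaging 5 CPM or more, without the outer 5% on each side, and subtracted, 85.7% of symbols having both values. Positions and transcripts are from GENCODE 29 (GRCh38), 1 principal transcript per gene, and promoters from RefSeq (GRCh38.p14).

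The members, lists, measures and pairs were chosen with earlier results of these data known. Beside the members, the text names pathway genes called in a fit and, among those averaging 1 CPM or more, the 12 with the largest SD over the 12 lines, and some of the 3 genes most alike to each member. Some items are not reported here. There are no replicates of any line. A 2-fold difference is the limit used between single libraries.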

Additional observations from a re-analysis of the deposited data

How the results depend on the processing

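The ranges here leave out each of the 12 lines in turn. The number of genes called on MYCN, 551, was 2680 with DESeq2, 1151 with all 14 lines, 0 with the subclones in place of their parents (3385 at an unadjusted p under 0.05 in edgeR) and 0 to 1356 over the omissions, with 0 without IMR32 (3435 unadjusted) or NGP (3337) and 1356 without SK-N-AS. On the mesenchymal score, 933, it was 2472 with DESeq2, 552 with the subclones swapped, 1415 with the trend removed, 359 (without GI-ME-N) to 1470 (without Lan-6). On the NRF2 score, 385, it was 1806 with DESeq2, 13 with the subclones swapped, and 34 (without SK-N-SH) to 565 (without Lan-6). Normalization by DESeq2 size factors and the filter on low counts moved none of the 3 counts by over 1.5 times.

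The r of TFRC and FTH1 was -0.0276 on the deposited log2 values and -0.065 to 0.357 over the omissions. That of ACSL4 and GPX4 was 0.204 with the trend removed and -0.531 to 0.585 over the omissions, and that of HMOX1 and NQO1 0.69 to 0.921. With the subclones swapped, slopes on MYCN were 0.031 for ACSL4 and 0.682 for SLC40A1, those on the mesenchymal score -0.11 for AIFM2, -0.307 for SLC40A1 and -0.019 for NCOA4, and those on the NRF2 score -0.031 for GPX4 and -0.137 for SLC40A1. With the trend removed, SLC40A1 had 0.581 on MYCN and -0.194 on the NRF2 score, and TFRC -0.003 on MYCN. On the deposited values, SLC40A1 had 0.32 on MYCN and TFRC -0.018 on the mesenchymal score. Over the omissions, the slope on MYCN ran from -0.248 to 0.687 for SLC40A1. On the mesenchymal score it ran from -0.063 to 0.376 for AIFM2, -0.034 to 0.135 for TFRC, -0.266 to 0.399 for SLC40A1 and -0.056 to 0.13 for NCOA4, and on the NRF2 score from -0.005 to 0.272 for TFRC, -0.094 to 0.417 for SLC40A1 and -0.153 to 0.018 for NCOA4. None of these slopes was called in edgeR, and the cause of the changes was not tested. Depth limits SLC40A1, HMOX1 and AIFM2, the members with the fewest counts.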

Other observations

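For each of the 10 genes, the 3 genes with the most alike levels across the 12 lines were found by Pearson's r of log2 CPM, among 12534 others with a mean of at least 5 CPM. These are descriptions over 12 points that share the library trends, picked as the highest of many, and not all of them are given. NQO1 was most like CLIC1 (r = 0.940, or 0.963 with the GC and length trend removed), an intracellular chloride channel protein, TNFRSF12A (0.946 and 0.891), the receptor of TWEAK, and TFE3 (0.935 and 0.916), a transcription factor of lysosomal genes. HMOX1 was most like RIPK1 (0.912 and 0.884), a kinase of cell death signalling, RIC8A (0.911 and 0.889) and FRMD8 (0.910 and 0.855). SLC40A1 was most like OCIAD2 (0.904 and 0.928) and ZNF516 (0.893 and 0.881), and AIFM2 like GPR107 (0.901 and 0.818).

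FTL was most like the ribosomal protein gene RPS18 (r = 0.948, but 0.522 with the trend removed), and FTH1 like B4GALT2 (0.940 and 0.858), SEC61B (0.939 and 0.820) and RPL28 (0.937 and 0.911). GPX4 was most like ERGIC3 (0.960 and 0.883), LAMTOR4 (0.958 and 0.757) and METTL26 (0.956 and 0.625). TFRC had the least close neighbours, led by DHX9, an RNA helicase, at 0.827 (0.751 with the trend removed).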
